A study of Mus musculus with 28 samples.

Results

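The genes described here build the cytoskeleton of neurons and, for at least 1 of them, also of myelinating glia. They are the neurofilament genes Nefl, Nefm and Nefh with Ina, the microtubule-associated protein genes Mapt, Map2 and Map1b, and the beta-tubulin genes Tubb3, Tubb2b and Tubb4a. They were chosen by name and make up 10 of the 23038 genes in each expression table, where 8 carry their present symbol and 2, Map2 and Map1b, are listed as Mtap2 and Mtap1b. Their transcripts were followed in brain tissue of Nova1hu/hu mice, a CRISPR/Cas9 knock-in in which the neuronal splicing factor NOVA1 carries the human form of 1 residue, and of Nova1wt/wt littermates with the mouse form, both on a C57BL/6J background (BL6 in the labels). The 28 libraries of polyadenylated RNA came from midbrain of E18.5 embryos (6 libraries per genotype), and from midbrain and cortex of P21 mice, 21 days after birth (4 libraries per genotype and region). The knock-in allele also carries silent changes that add a restriction site, is present in all cells rather than in a chosen cell type, and no group received a treatment. The number of founder lines behind the hu/hu mice, and which animals gave both a midbrain and a cortex library, are not given in the sources used here.

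Neurofilaments are intermediate filaments that fill large axons and set their calibre. The light (Nefl), medium (Nefm) and heavy (Nefh) subunits co-assemble, and alpha-internexin (Ina) joins them and comes early in development. Microtubules are polymers of alpha- and beta-tubulin. Tau (Mapt) binds them mainly in axons, MAP2 (Map2) mainly in dendrites, and MAP1B (Map1b) mainly in growing neurites. Beta-tubulin comes in isotypes from separate genes, of which Tubb3 marks neurons, Tubb2b is used by newborn and migrating neurons, and Tubb4a is used by oligodendrocytes, the cells that make myelin, as well as by neurons.

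Expected counts per library, estimated reads per gene summed over genes, totalled 18550922 to 45134998, of which the ribosomal precursor Rn45s took 2.54% to 11.9%. Levels are given as TPM, transcript abundance divided by exon length and scaled to a common total per library, so genes can be compared with each other. All 10 members had counts well above the filter in every library, the lowest being 285 for Nefh at E18.5. The P21 dissections carried their regional markers: the summed level of 6 cortical markers was 229.7 to 258 TPM in cortex and 3.93 to 5.67 TPM in P21 midbrain, and that of 6 midbrain markers 151 to 187 TPM in P21 midbrain and 10.4 to 20.7 TPM in cortex. In E18.5 midbrain the sums were 17.4 to 26.6 TPM for the cortical and 76.3 to 92.0 TPM for the midbrain markers. Markers of other cells also differed between libraries, with 4 choroid plexus markers summing to 12.05 to 3035 TPM in P21 midbrain and 3 cerebellar granule cell markers to 2.17 to 17.2 TPM. Nova1 itself stood at 98.4 to 126 TPM in E18.5 midbrain, 45.7 to 52.7 TPM in P21 midbrain and 23.0 to 25.5 TPM in cortex, with overlapping genotypes. A level per gene does not show which allele is present.

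Beta-tubulin isotypes resemble each other over the coding sequence, and how closely they do so bears on how well short reads can tell them apart. The last 75 coding bases are shown for the 3 members and for Tubb2a, the nearest relative of Tubb2b, from the GENCODE annotation of GRCm38 (mm10), 5′ to 3′, with capitals for bases that differ from Tubb2b or have no partner in it.
Tubb2b (chr13:34127471-34127545, minus strand): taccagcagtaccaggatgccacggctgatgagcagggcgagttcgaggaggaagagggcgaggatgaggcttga
Tubb2a (chr13:34074468-34074542, minus strand): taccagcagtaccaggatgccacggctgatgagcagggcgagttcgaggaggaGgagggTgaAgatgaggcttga
Tubb3 (chr8:123421608-123421682, plus strand): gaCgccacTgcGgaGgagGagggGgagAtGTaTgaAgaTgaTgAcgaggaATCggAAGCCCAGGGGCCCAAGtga
Tubb4a (chr17:57080690-57080764, minus strand): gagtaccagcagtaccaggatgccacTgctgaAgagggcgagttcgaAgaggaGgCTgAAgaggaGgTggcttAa
Over the whole coding sequence Tubb2a had 47 mismatches to Tubb2b in 1338 bases (96.49% identity), Tubb3 had 209 and Tubb4a 205. The predicted products have 445, 445, 450 and 444 residues in the order shown. Reads from stretches shared by Tubb2a and Tubb2b can be split between them by the counting, so the separate values of these 2 genes are uncertain to that extent. Tubb3 and Tubb4a were compared with Tubb2b only, so their likeness to other isotypes is not shown here.

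The order of the members by level was not the same in the 3 tissues. In E18.5 midbrain Tubb2b was the most abundant, at 4115 ± 379 TPM (SD, n = 12), followed by Tubb3 at 2211 ± 108 TPM and Mapt at 992 ± 47.9 TPM, and Nefh was the least abundant, at 15.2 ± 2.52 TPM. In P21 midbrain Tubb4a led, at 1457 ± 73.5 TPM (n = 8), ahead of Nefl at 855 ± 77.4 TPM and Tubb3 at 742 ± 41.7 TPM, and Map2 was the lowest, at 178 ± 7.92 TPM, although Tubb2b at 191 ± 11.5 TPM and Map2 overlapped. In P21 cortex Tubb4a again came first, at 989 ± 15.9 TPM (n = 8), then Tubb3 at 579 ± 34.1 TPM, and Nefh last at 28.8 ± 0.909 TPM.

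**Figure D1:**
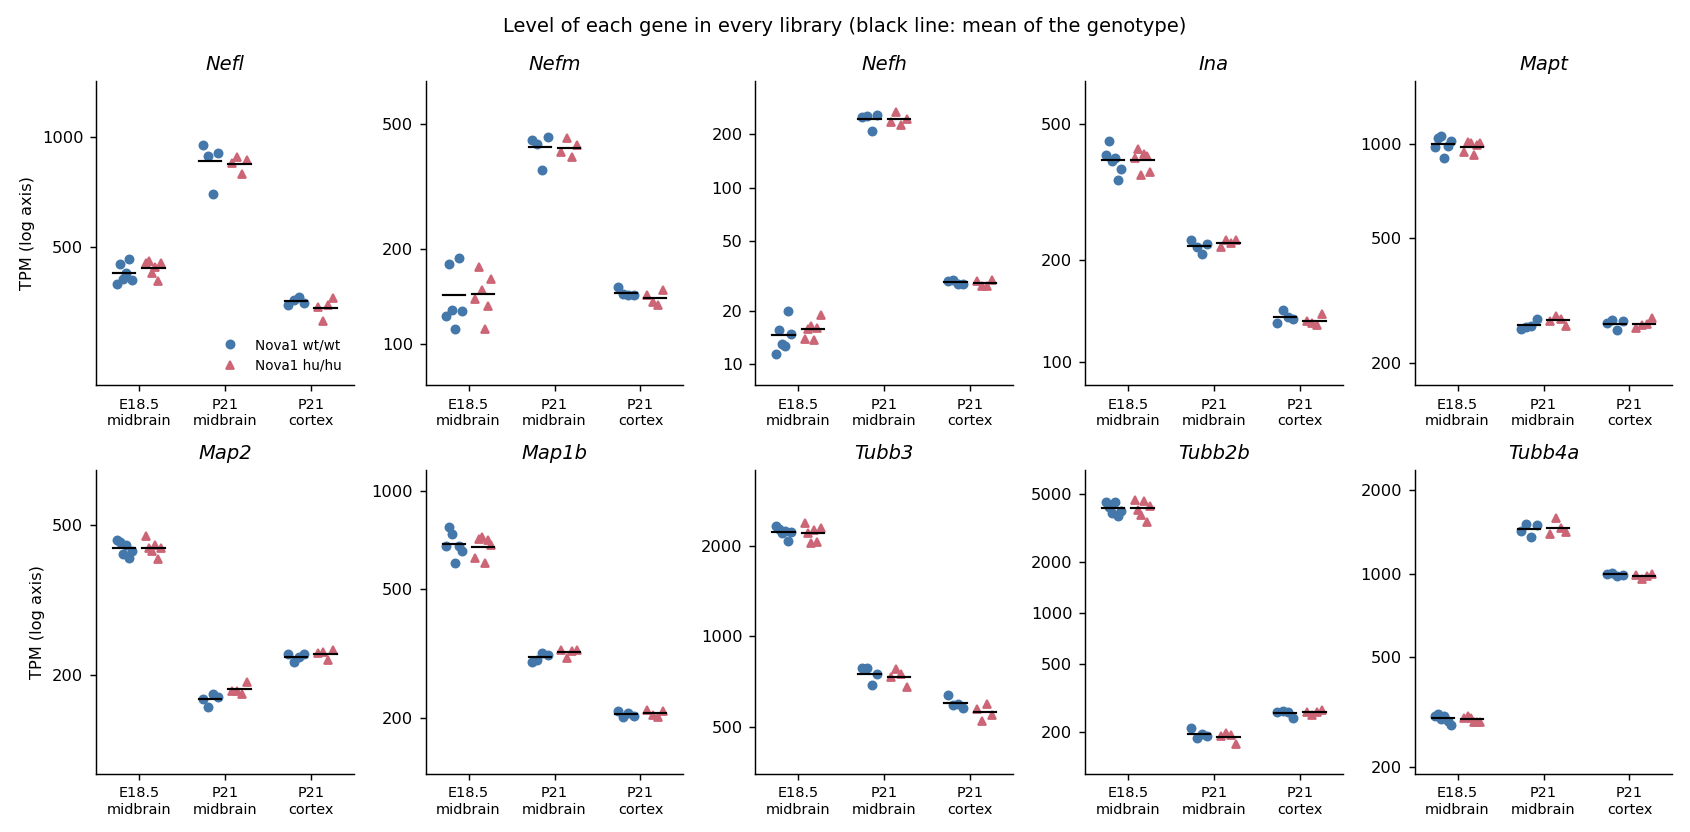
Level of each of the 10 genes in TPM (log axis) in every library of the 3 tissues, with circles for Nova1 wt/wt, triangles for Nova1 hu/hu and black lines for genotype means. The tissues separate for most genes, Nefm at E18.5 and in cortex and Mapt in the P21 regions being exceptions, while the genotypes overlap in every panel.

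Age was compared within midbrain, P21 against E18.5, with genotype in the model (edgeR quasi-likelihood test, 20 libraries, a gene being called where p was under 0.05 and its Benjamini-Hochberg adjusted value, over all genes tested, under 0.1). The 3 neurofilament subunits and Tubb4a rose, and Ina, the 3 microtubule-associated protein genes, Tubb3 and Tubb2b fell. These 4 higher and 6 lower members stand against 42.4% of 16330 genes called higher and 43.3% called lower, so being called is common at this contrast. With a change of at least 2-fold, 4 members were higher (15.9% of all genes) and 4 were lower (14.6%), Ina and Map1b changing by less. With library totals without Rn45s as the scaling, Nefl came under 2-fold (0.99 on the log2 scale) and Map1b passed it (-1.11). In these bulk samples, fewer cells of a type and less RNA per cell cannot be told apart. Age and the date of preparation or sequencing, which the labels do not give, cannot be told apart either.

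Among the neurofilament subunits, the rise was smallest for the light and largest for the heavy one. Nefl (chr14:68083863-68089095, plus strand) had a lowest, median and highest level of 398, 435 and 465 TPM at E18.5 and 701, 873 and 951 TPM at P21. The ranges did not overlap, and the log2 fold change was 1.18 (95% CI 1.09 to 1.28, adjusted p = 2.25e-18), a 2.27-fold rise. Nefm (chr14:68119545-68125004, minus strand) lies 30.45 kb from Nefl in the RefSeq annotation. It went from 112, 135 and 188 TPM to 356, 429 and 454 TPM, again without overlap, and rose by 1.75 (95% CI 1.58 to 1.92, adjusted p = 9.95e-17) on the log2 scale, or 3.36-fold. Nefh (chr11:4938754-4948064, minus strand) encodes the heavy subunit, whose tail spaces filaments in large axons. It had 11.4, 15.2 and 19.97 TPM at E18.5 and 209, 248 and 268 TPM at P21, so every P21 library lay more than 10-fold above every E18.5 library, and its log2 fold change was 4.202 (95% CI 4.05 to 4.36, adjusted p = 1.20e-25), or 18.4-fold. Ina (chr19:47014681-47025327, plus strand) went the other way, from 344, 399 and 446 TPM to 208, 223 and 229 TPM, with a log2 fold change of -0.62 (95% CI -0.71 to -0.53, adjusted p = 8.01e-13). The lowest E18.5 library was still above the highest at P21. Gene models overlap at this family, Nefl with Nefm in GENCODE and Nefm with A230070E04Rik (1253 bases), Nefh with Ap1b1 (745 bases) and Gm35321 (4484 bases), and Ina with Nt5c2 (494 bases) in RefSeq. The counting is not stated to use strand, so reads from the shared stretches cannot be assigned with certainty.

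The 3 microtubule-associated protein genes were all lower at P21. Mapt (chr11:104229409-104332090, plus strand), which encodes tau, had 903, 1001 and 1062 TPM as its lowest, median and highest level at E18.5 and 258, 268 and 283 TPM at P21. It was 3.20-fold lower, with a log2 fold change of -1.68 (95% CI -1.75 to -1.61, adjusted p = 5.57e-25). Map2 (chr1:66175202-66442583, plus strand), the dendritic family member, fell from 405, 435 and 467 TPM to 164, 178 and 192 TPM, a log2 change of -1.09 (95% CI -1.17 to -1.01, adjusted p = 1.81e-19). The lowest E18.5 library was more than 2-fold above the highest P21 library. Map1b (chr13:99421464-99516602, minus strand) fell least of the 3, from 599, 680.0 and 775 TPM to 298, 315 and 323 TPM, with a log2 fold change of -0.92 (95% CI -0.99 to -0.84, adjusted p = 7.25e-18), or 1.89-fold. Over the same ages 6 pan-neuronal markers, synaptic vesicle genes among them, all rose, their summed level being 1154 to 1412 TPM at E18.5 and 4985 to 5259 TPM at P21. The part of neuronal content in the fall of these 3 genes was not tested. Antisense gene models overlap Mapt (Gm11659) and Map2 (Gm10558), and reads from them cannot be told apart here.

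The beta-tubulin genes changed in both directions. Tubb2b (chr13:34127008-34130354, minus strand), the isotype of newborn neurons, had 3432, 4118 and 4627 TPM at E18.5 and 171, 191 and 212 TPM at P21. It was 18.7-fold lower, with a log2 fold change of -4.23 (95% CI -4.37 to -4.08, adjusted p = 2.92e-26), the largest decrease among the members. Tubb3 (chr8:123411553-123422015, plus strand), the neuronal isotype, fell from 2042, 2227 and 2382 TPM to 677, 748 and 786 TPM, a log2 change of -1.37 (95% CI -1.47 to -1.28, adjusted p = 3.22e-20). A longer gene model on the same strand, Gm20388, overlaps Tubb3. Tubb4a (chr17:57080061-57087600, minus strand) rose from 284, 299 and 313 TPM to 1355, 1445 and 1584 TPM, 5.61-fold, with a log2 fold change of 2.49 (95% CI 2.42 to 2.56, adjusted p = 5.62e-28). Markers of myelinating oligodendrocytes moved with it: all 8 of 8 were called higher at P21, their summed level was 91.7 to 136 TPM at E18.5 and 21777 to 24450.4 TPM at P21, and Mobp, Opalin and Ermn stayed under 1 TPM in every E18.5 library. All 5 of 5 progenitor and cycling cell markers were called lower, from 185 to 237 TPM to 44.3 to 62.1 TPM. The part of these cell types in the changes of Tubb4a and Tubb2b was not tested.

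**Figure D2:**
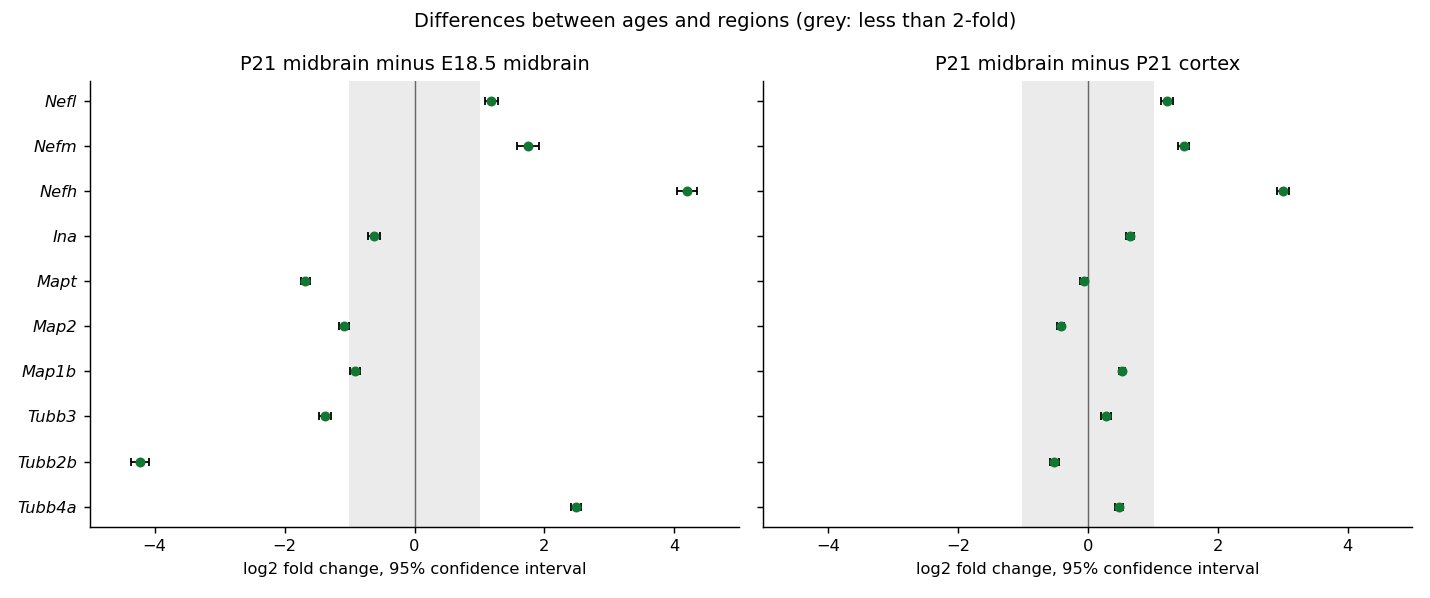
Log2 fold change with its 95% confidence interval for each of the 10 genes, P21 midbrain minus E18.5 midbrain on the left and P21 midbrain minus P21 cortex on the right; grey marks changes under 2-fold. Nefh at 4.202 and Tubb2b at -4.23 lie farthest out for age, and Nefh at 3.002 for region.

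RefSeq promoter sequence (GRCm38.p6, 250 bases before to 50 after the start) was matched for 5 of the 10 members, Map2, Tubb3, Map1b, Ina and Tubb4a. It is shown for a pair that fell with age and for the beta-tubulin that rose, with capitals for GGGCGG (the GC box) and TATAAA on either strand, which do not overlap each other.
Tubb3 (chr8:123411303-123411602, plus strand): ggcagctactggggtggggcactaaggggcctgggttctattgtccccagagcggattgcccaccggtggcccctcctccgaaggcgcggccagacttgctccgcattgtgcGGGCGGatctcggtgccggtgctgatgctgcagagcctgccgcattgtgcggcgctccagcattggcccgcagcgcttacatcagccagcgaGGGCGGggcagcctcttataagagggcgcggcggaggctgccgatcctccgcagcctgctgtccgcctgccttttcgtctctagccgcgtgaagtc
Map1b (chr13:99516553-99516852, minus strand): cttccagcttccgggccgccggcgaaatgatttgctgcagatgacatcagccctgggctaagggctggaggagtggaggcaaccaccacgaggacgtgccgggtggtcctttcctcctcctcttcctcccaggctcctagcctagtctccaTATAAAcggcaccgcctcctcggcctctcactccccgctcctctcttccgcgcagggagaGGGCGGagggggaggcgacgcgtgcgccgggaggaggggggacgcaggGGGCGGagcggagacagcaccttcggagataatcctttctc
Tubb4a (chr17:57087551-57087850, minus strand): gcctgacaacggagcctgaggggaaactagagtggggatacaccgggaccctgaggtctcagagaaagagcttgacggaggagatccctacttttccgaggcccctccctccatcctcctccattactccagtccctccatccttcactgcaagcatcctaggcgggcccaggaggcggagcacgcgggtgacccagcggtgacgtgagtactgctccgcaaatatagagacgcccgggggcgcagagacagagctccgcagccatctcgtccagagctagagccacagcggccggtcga
GGGCGG was present 5 times in the window of Map2, 2 times each in those of Tubb3, Map1b and Ina and 0 times in that of Tubb4a, and 35.7% of 32851 windows held it. TATAAA was present in that of Map1b alone of the 5, and in 13.6% of all windows. The E-box CACGTG was in none of the 5 and in 7.15% of all windows. The 5 windows held 19 to 37 CpG pairs, above the median of 7 over all windows. These are matches of letters only.

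The composition of both families turned over with age. Each share below is a gene's TPM divided by the summed TPM of its family in the same library, tested by exact permutation of libraries. Among 8 beta-tubulin genes, Tubb2b held 30.9% ± 0.797 (SD, n = 12) of the summed level at E18.5 and 3.93% ± 0.217 (n = 8) at P21, a loss of 27.0 percentage points. Tubb4a held 2.26% ± 0.166 and then 29.9% ± 0.887, a gain of 27.6 percentage points, so the shares of these 2 genes nearly changed places. Tubb3 changed less, 16.7% ± 0.617 and 15.2% ± 0.372, yet its ranges did not overlap and the difference of 1.46 percentage points passed the test. Tubb2a, which is no member, held 32.7% ± 1.23 at E18.5 and 33.2% ± 0.729 at P21, and this difference was not tested. The summed level of the 8 genes was 13285 ± 979 TPM at E18.5 and 4871 ± 169 TPM at P21. Among the neurofilament genes with Ina, Ina held 39.9% ± 2.73 at E18.5 and 12.8% ± 0.760 at P21. Nefm went from 14.6% ± 2.09 to 24.1% ± 0.335 and Nefh from 1.54% ± 0.236 to 14.0% ± 0.388, while Nefl went from 44.0% ± 1.499 to 49.1% ± 0.989. For all 7 genes the age difference in share had p = 7.94e-06 by the exact permutation test, the smallest that 125970 regroupings can give (adjusted p = 3.97e-05 over the 15 beta-tubulin or the 20 neurofilament comparisons). That test treats libraries as independent. Same-numbered libraries of the 2 genotypes deviated together, so these p-values may be too small. The direction for Nefl depended on the denominator: without Ina its share fell by 17.0 percentage points.

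**Figure D3:**
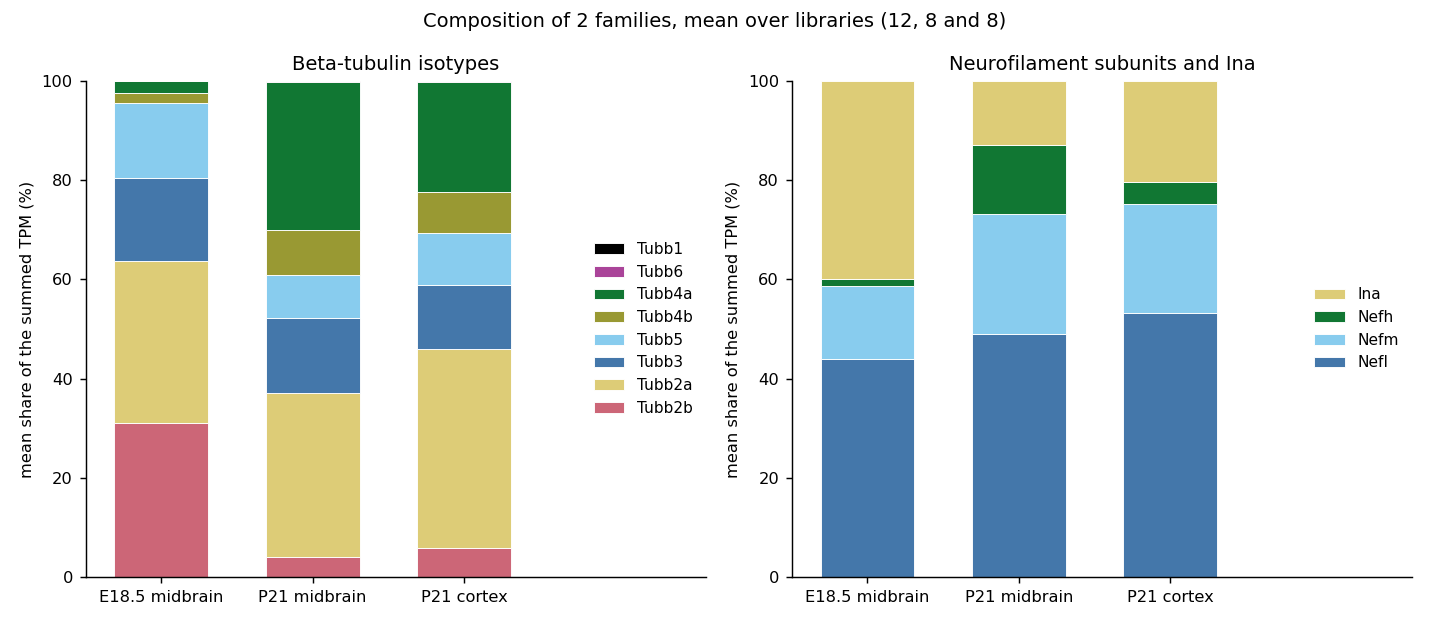
Mean share (%) of the summed TPM of 8 beta-tubulin genes (left) and of the neurofilament genes with Ina (right) in midbrain at E18.5 and at P21 and in cortex (12, 8 and 8 libraries). Tubb2b takes 30.9% at E18.5 and 3.93% in P21 midbrain, and Nefh 14.0% in P21 midbrain against 4.404% in cortex.

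The wider cytoskeletal gene set was mixed in direction with age. Of 97 related genes, 96 were tested, 41 were called higher (22 by at least 2-fold) and 48 lower (22 by at least 2-fold). Over all genes 42.4% were called higher and 43.3% lower, and 15.9% and 14.6% by at least 2-fold, so calls in most of a list are common at this contrast and the counts per list below are descriptions. The related genes' median log2 fold change of -0.10 compares with -0.015 over all genes tested. Log2 fold changes ± SE are given below for the 2 largest in each direction. The other tubulins also divided: 2 of 5 alpha-tubulin genes were higher and 2 lower, with Tuba4a (3.75 ± 0.075) and Tuba8 (2.93 ± 0.15) against Tuba1a (-2.18 ± 0.07) and Tuba1c (-1.59 ± 0.11), and 1 of 4 other beta-tubulin genes was higher and 2 lower, with Tubb4b (0.94 ± 0.034) against Tubb5 (-2.09 ± 0.043) and Tubb2a (-1.23 ± 0.061). Tuba1a, the main alpha-tubulin of young neurons, was at 9624 ± 1092 TPM at E18.5 and 1854 ± 79.8 TPM at P21. Of 8 other intermediate filament genes 4 were higher and 4 lower. The astrocyte filament gene Gfap (4.70 ± 0.15) and Synm (1.11 ± 0.053) rose, and the lamin gene Lmnb1 (-3.07 ± 0.054) and the progenitor filament gene Vim (-2.76 ± 0.067) fell. Of 24 other microtubule-associated and end-binding protein genes, 10 were higher and 14 lower. The largest increases were Tppp (4.12 ± 0.056), a microtubule bundler of oligodendrocytes, and Map6d1 (3.59 ± 0.061), and the largest decreases Dcx (-5.41 ± 0.066), the doublecortin gene of migrating neurons, and Map9 (-1.70 ± 0.055). Stathmins, which destabilise microtubules, and severing enzymes were called lower for 6 of 9 genes, led by Stmn1 (-1.72 ± 0.042) and Stmn2 (-1.63 ± 0.055). Katnal1 was higher (1.02), and Stmn3, called higher at 0.12, was at -0.036 (adjusted p = 0.51, not called) with library totals as the scaling and was not called without E18.5 midbrain hu/hu replicate 5 (0.10) or P21 midbrain wt/wt replicate 2 (0.094). Of 11 tubulin-modifying enzymes 3 were higher, among them the polyglutamylases Ttll7 (2.83 ± 0.061) and Ttll11 (1.46 ± 0.074), and 7 lower, led by the vasohibin Vash2 (-2.50 ± 0.063) and its partner Svbp (-1.86 ± 0.08). Of 6 tubulin folding cofactors 2 were higher, Arl2 (1.07 ± 0.056) and Tbcc (0.38 ± 0.068), and 4 lower, led by Tbca (-1.16 ± 0.081) and Tbce (-0.67 ± 0.05). Of 9 kinases of tau and other MAPs or their activators, 5 were higher and 4 lower, all by less than 2-fold, with Cdk5 (0.64 ± 0.036) and Gsk3a (0.60 ± 0.037) at one end and Cdk5r1 (-0.88 ± 0.033) and Mark3 (-0.68 ± 0.038) at the other. Of 16 kinesin and dynein genes 10 were higher, led by Kif5a (2.05 ± 0.041), a neuronal motor, and Dync1i1 (1.59 ± 0.044), and 4 lower, led by Kif21b (-2.50 ± 0.046) and Dync1i2 (-0.93 ± 0.047). Of the 4 gamma-, delta- and epsilon-tubulins, Tubg2 (0.60 ± 0.045) and Tubg1 (0.58 ± 0.045) were higher and Tube1 (-0.98 ± 0.089) lower.

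Regions were compared at P21, midbrain against cortex, in the same way (16 libraries). All 4 neurofilament family members were higher in midbrain, as were Map1b, Tubb3 and Tubb4a, and Mapt, Map2 and Tubb2b were lower. These 7 higher and 3 lower members stand against 37.9% and 37.7% of 16345 genes, and 3 members passed 2-fold, all higher, against 7.81% of genes higher and 7.56% lower by at least 2-fold. The 3 were the neurofilament subunits, again with the heavy one ahead. Nefh had a lowest, median and highest level of 27.6, 28.9 and 29.8 TPM in cortex, compared with the 209 to 268 TPM of midbrain, 8.01-fold higher in midbrain with a log2 difference of 3.002 (95% CI 2.91 to 3.09, adjusted p = 1.45e-25). Nefm had 133, 143 and 151 TPM in cortex and a log2 difference of 1.48 (95% CI 1.39 to 1.56, adjusted p = 3.27e-20), or 2.79-fold. Nefl had 315, 349.8 and 366 TPM and a difference of 1.22 (95% CI 1.13 to 1.31, adjusted p = 8.65e-18), or 2.32-fold. No cortex library reached the lowest midbrain library for any of them. Ina had 129, 133 and 142 TPM in cortex, below every midbrain library, and differed by 0.65 (95% CI 0.60 to 0.71, adjusted p = 1.62e-16). For Nefm the range in cortex lay inside that of E18.5 midbrain.

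The microtubule-associated protein genes split between the regions. Map1b had 202, 206 and 211 TPM in cortex, all below midbrain, and was 1.44-fold higher in midbrain, at 0.53 (95% CI 0.48 to 0.57, adjusted p = 4.21e-17) on the log2 scale. Map2 had 216, 227 and 232 TPM in cortex, all above midbrain, and was 1.34-fold lower in midbrain, at -0.42 (95% CI -0.47 to -0.37, adjusted p = 4.61e-14). Mapt had 255, 267 and 278 TPM in cortex and 258, 268 and 283 TPM in midbrain, and these ranges overlapped. Its log2 difference of -0.064 (95% CI -0.11 to -0.015, adjusted p = 0.0177) was called lower in midbrain, but the mean TPM was slightly higher there (269 against 267 TPM), and the call was lost with scaling to library totals (-0.049, adjusted p = 0.139) and in the hu/hu libraries alone (-0.044, adjusted p = 0.32). Of the beta-tubulins, Tubb4a had 957, 992 and 1009.7 TPM in cortex and was 1.40-fold higher in midbrain, at 0.48 (95% CI 0.43 to 0.54, adjusted p = 8.66e-14) on the log2 scale. All 8 of 8 myelinating oligodendrocyte markers were also called higher in midbrain, where their summed level was 21777 to 24450.4 TPM against 6423 to 7222 TPM in cortex, and their part in the Tubb4a difference was not tested. Tubb3 had 523, 584 and 634 TPM in cortex and was 1.22-fold higher in midbrain, at 0.28 (95% CI 0.21 to 0.36, adjusted p = 3.10e-07). Tubb2b had 243, 261 and 269 TPM and was 1.43-fold lower in midbrain, at -0.52 (95% CI -0.59 to -0.44, adjusted p = 1.55e-12). Of the 6 pan-neuronal markers, 5 were called lower in midbrain and 1 higher, with sums of 4985 to 5259 TPM in midbrain and 5933 to 6362 TPM in cortex, and the part of neuronal content in the region differences was not tested.

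In the neurofilament family Nefh held 14.0% ± 0.388 of the summed level in P21 midbrain and 4.404% ± 0.110 in cortex, and Ina 12.8% ± 0.760 and 20.5% ± 0.506. Nefl held a larger share in cortex, 53.3% ± 0.888, than in midbrain, by 4.21 percentage points. Nefm held 21.8% ± 0.652 in cortex, 2.29 percentage points less than in midbrain, and this difference did not pass when counts were not divided by exon length (0.607 points, adjusted p = 0.168) or when Ina was left out of the sum (0.219 points, adjusted p = 0.896). Tubb4a held 22.2% ± 1.16 of beta-tubulin in cortex against 29.9% ± 0.887 in midbrain, Tubb3 12.98% ± 0.394 against 15.2% ± 0.372, and Tubb2b 5.83% ± 0.293 against 3.93% ± 0.217. Each of these region differences had p = 1.55e-04, the smallest that the exact permutation test over 12870 regroupings can give (adjusted p = 3.89e-04 in both families). As for age, the test did not use the replicate pairs across genotypes, so these p-values may be too small.

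Between regions the related genes were called about as often as all genes. Of 96 tested, 37 were called higher in midbrain and 41 lower, 4 and 6 of them by at least 2-fold, beside 37.9% and 37.7% of all genes, and 7.81% and 7.56% at 2-fold, with a median log2 difference of -0.036 beside 0.00063 for all genes. Peripherin, an intermediate filament that co-assembles with neurofilaments, went from 4.27 ± 0.966 to 34.5 ± 3.87 TPM between cortex and midbrain (Prph, log2 difference 2.94 ± 0.11). Tppp3 was higher in midbrain at 1.67 ± 0.047 on the log2 scale, the severing enzyme gene Fign at 1.99 ± 0.072 and Vash2 at 1.69 ± 0.091. Lower in midbrain by at least 2-fold among the named genes were Dclk1 (-1.71 ± 0.034) and Dcx (-1.20 ± 0.041) of the doublecortin family, the tubulin tyrosine ligase gene Ttl (-1.15 ± 0.036), and the CDK5 activators Cdk5r2 (-1.69 ± 0.039) and Cdk5r1 (-1.23 ± 0.028). Of the 9 kinase list genes 7 were lower in midbrain and 1, Gsk3b, higher at 0.13 ± 0.03. The tubulins differed by less than 2-fold: Tuba1b (0.36 ± 0.027), Tuba1a (0.098 ± 0.029), Tubb6 (0.46 ± 0.082), Tubb4b (0.17 ± 0.033) and Tube1 (0.38 ± 0.13) were higher in midbrain, and Tuba8 (-0.63 ± 0.082), Tuba4a (-0.45 ± 0.029), Tubb5 (-0.23 ± 0.025), Tubb2a (-0.23 ± 0.05), Tubd1 (-0.38 ± 0.069) and Tubg2 (-0.15 ± 0.035) lower. So did the motors and cofactors, with Kif1b (0.67 ± 0.026), Kif21a (0.63 ± 0.032), Arl2 (0.56 ± 0.045) and Tbcd (0.47 ± 0.032) higher and Kif21b (-0.70 ± 0.044), Kif3b (-0.46 ± 0.032), Tbce (-0.21 ± 0.046) and Tbca (-0.17 ± 0.046) lower. Other genes named by the rule were Map4 (0.69 ± 0.021), Gfap (0.83 ± 0.046), Katnal1 (0.42 ± 0.028) and Ttll7 (0.63 ± 0.05), all higher, and Stmn1 (-0.53 ± 0.026), Ttll11 (-0.80 ± 0.046) and Lmnb2 (-0.11 ± 0.051), all lower, the last of which lost its call with library totals (-0.093, adjusted p = 0.133) and on leaving out 9 of the 16 libraries, 1 at a time.

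Within each tissue, libraries with more Nefm also had more Nefh. For this pair r of log2 TPM was 0.769 over the 12 E18.5 libraries, 0.967 over the 8 of P21 midbrain and 0.827 over the 8 of cortex, with rho of 0.797, 0.952 and 0.857. The permutation p-values adjusted over 18 relations were 0.0211, 0.00714 and 0.0267 for r and 0.0274, 0.0205 and 0.0482 for rho, two-sided, and without the 2 libraries farthest from the median of Nefm r was 0.726, 0.850 and 0.822. In cortex r was 0.770 to 0.888 on leaving out each library in turn, and the adjusted p was then above 0.05 for 7 of the 8, all but wt/wt replicate 2, with 1 library fewer in each test. At E18.5 leaving out wt/wt replicate 5 gave r = 0.687, with an adjusted permutation p of 0.0710 over the remaining 11 libraries. Within genotypes, of 6, 4 and 4 libraries, r for this pair was 0.656 and 0.849 at E18.5, 0.986 and 0.976 in P21 midbrain and 0.959 and 0.526 in cortex, in hu/hu and wt/wt respectively. In P21 midbrain Nefl followed Nefm, with r = 0.953 (rho = 0.881, adjusted permutation p = 0.00871 and 0.0435), and r was 0.696 without the 2 farthest libraries. Nefl also followed Nefh there (r = 0.889, rho = 0.786, adjusted permutation p = 0.0211 and 0.0718), but with r = 0.395 after that step the relation rests on those libraries. Its adjusted permutation p was above 0.05 without wt/wt replicate 3 (r = 0.725) and without hu/hu replicate 3 (r = 0.877). One of them, P21 midbrain wt/wt replicate 3, had the lowest level of all 4 genes of the family among the 8 libraries, with 701, 356, 209 and 208 TPM for Nefl, Nefm, Nefh and Ina. It also had the lowest sums of myelinating oligodendrocyte (21777 TPM), pan-neuronal (4985 TPM), granule cell (2.17 TPM) and erythroid markers (959 TPM) of the 8. Its choroid plexus sum (1387 TPM) was not the lowest. Rn45s took 8.16% of its counts, the highest share of the 8. The part of tissue composition and of Rn45s in the covariation was not tested. The adjusted p for r was above 0.05 in the other 13 relations. For Ina at E18.5 the values were near or below 0 (r of -0.0269, -0.126 and -0.527 with Nefl, Nefm and Nefh over 12 libraries, adjusted permutation p of 0.933, 0.736 and 0.118). Libraries with the same replicate number deviated together, so libraries are not fully independent and these p-values may be too small.

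**Figure D4:**
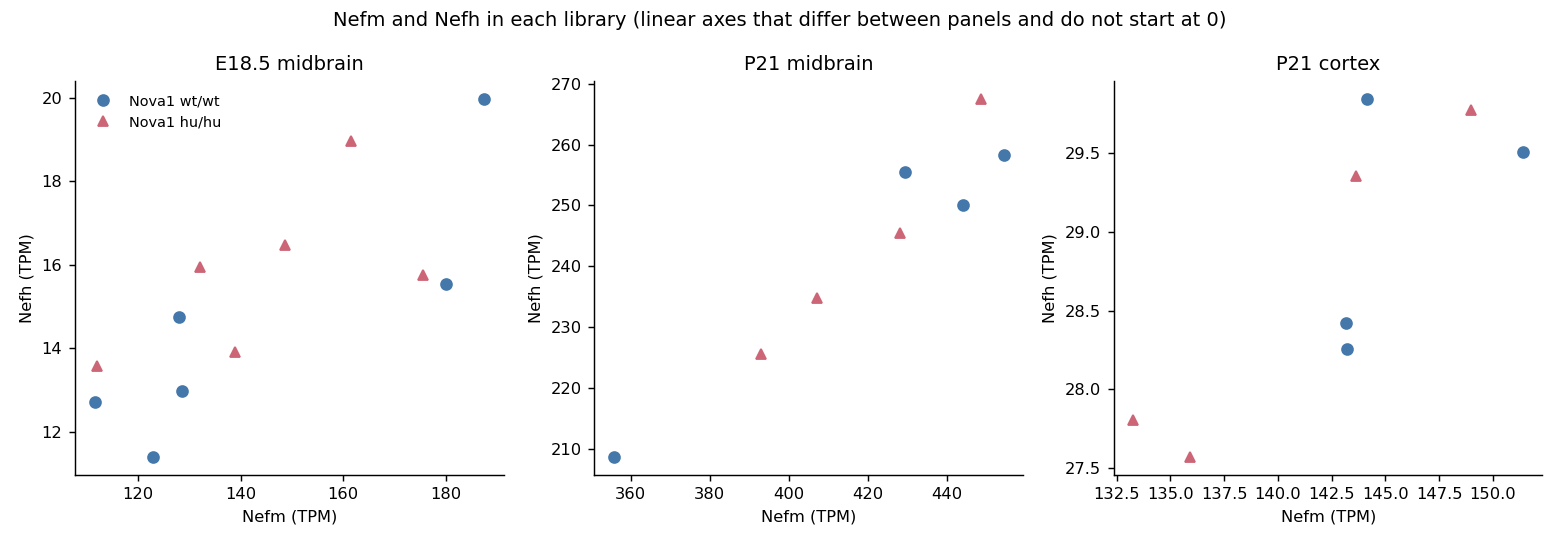
Nefm against Nefh in TPM in each library of the 3 tissues (circles Nova1 wt/wt, triangles Nova1 hu/hu), on linear axes that differ between panels and do not start at 0. The points rise together in each panel, with r of log2 TPM of 0.769, 0.967 and 0.827, and the lowest point in P21 midbrain is wt/wt replicate 3.

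The genes with the profile most like each member over all 28 libraries are given as a description, since the libraries fall into 3 tissues and genes that differ between tissues alike score high. Tubb4a was most like the myelin genes Mbp (r = 0.998) and Mag (r = 0.998) among 16805 genes, by Pearson's r of log2(TPM + 1). Tubb2b was most like Tubb5 (r = 0.999), Nrep (r = 0.999), Amz2 (r = 0.998), the first a beta-tubulin too. Mapt was nearest to Ablim3 (r = 0.999), Dnmt1 (r = 0.998), Tbc1d16 (r = 0.997), Map2 to Fnbp1l (r = 0.998), Ankrd12 (r = 0.996), Sh3bgrl (r = 0.996), and Map1b to Ncam1 (r = 0.998), Syn3 (r = 0.997), Dlg5 (r = 0.997), of which Ncam1 encodes the neural cell adhesion molecule. Tubb3 was nearest to Reep1 (r = 0.997), Dpysl3 (r = 0.997), Pafah1b3 (r = 0.996), of which Dpysl3 is a collapsin response mediator of growing axons. Of the neurofilament family, Nefh was nearest to Epb41l3 (r = 0.995), Anln (r = 0.994), Mrap2 (r = 0.994), Nefm to A230070E04Rik (r = 0.990), Syt2 (r = 0.977), Ank1 (r = 0.977), Nefl to Dock5 (r = 0.983), Steap2 (r = 0.982), Il6st (r = 0.981) and Ina to Scn9a (r = 0.994), Zfhx4 (r = 0.993), Rnf152 (r = 0.993). A230070E04Rik (chr14:68123752-68131371) shares bases with Nefm, and reads from that stretch cannot be told apart. Syt2 is a synaptotagmin of fast synapses, Scn9a a sodium channel, and Ank1 an ankyrin.

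Genotype was compared within each tissue, Nova1hu/hu against Nova1wt/wt, to ask whether the human form of the residue changed these transcript levels. Counts per gene do not show which splice forms were made, and splicing was not examined here. No member was called in any tissue. The same test called 0% of 15540 genes in E18.5 midbrain, 0% of 15972 in P21 midbrain and 0% of 15767 in P21 cortex, so the members did not stand apart from other genes in this. At an unadjusted p under 0.05 edgeR's quasi-likelihood test had 120 higher and 81 lower genes, 208 and 218, and 254 and 196 in the 3 tissues in that order. In P21 midbrain DESeq2 and edgeR's exact test called 1 gene, Gkn3, which is no cytoskeletal gene and is named after its values were seen. The study also called Gkn3 lower there with edgeR, a call that the quasi-likelihood test did not make. Libraries of the same number deviated together across genotypes, and with the number as a block 4 genes (0.025% of genes) were called in P21 midbrain and 0 in the other tissues. They were chosen after their values were seen: Gabra6 and Cbln3, lower and both on the granule cell list, Mybpc3, lower, and Cdr1, higher. Granule cell markers summed to 2.22 to 6.63 TPM in hu/hu and 2.17 to 17.2 TPM in wt/wt midbrain. No member was called with the block (lowest adjusted p = 0.777), and no related gene was called in any tissue in either fit.

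The confidence intervals give the sizes of change that were compatible with these libraries, in the fit without the replicate block unless stated. In E18.5 midbrain, with 6 libraries per genotype, the lowest, median and highest level of Nefl was 398, 418 and 465 TPM in wt/wt and 404, 447 and 459 TPM in hu/hu, and its log2 difference was 0.042 (95% CI -0.073 to 0.16, adjusted p = 1). Nefh had 11.4, 13.9 and 19.97 TPM and 13.6, 15.9 and 19.0 TPM, with the largest estimate there and a wide interval, 0.11 (95% CI -0.13 to 0.36, adjusted p = 1). Nefm, the most variable member at E18.5 (coefficient of variation 18.4%), had 0.013 (95% CI -0.24 to 0.27, adjusted p = 1). The genotypes overlapped for each. The other 7 members had E18.5 estimates between -0.032 and -0.00018, the widest interval, that of Tubb2b, running from -0.18 to 0.18. With the replicate block the interval of Tubb2b was narrower, -0.066 to 0.051. In P21 midbrain the 1 member whose interval left out 0, with the block or without it, was Map2. Its libraries were at 173, 164, 178 and 174 TPM in wt/wt and 181, 182, 178 and 192 TPM in hu/hu, so 1 wt/wt library lay above 1 hu/hu library, and the log2 difference was 0.09 (95% CI 0.015 to 0.16, adjusted p = 1). Map1b had 298, 302, 316 and 313 TPM and 323, 306, 321 and 323 TPM, with 0.054 (95% CI -0.0067 to 0.11, adjusted p = 1). Mapt had 0.052 (95% CI -0.026 to 0.13, adjusted p = 1), so the estimates of all 3 microtubule-associated protein genes were above 0 without passing the test. The remaining 7 had P21 midbrain estimates between -0.06 and 0.04. In P21 cortex Tubb3 had 634, 592, 595 and 576 TPM in wt/wt and 573, 523, 595 and 544 TPM in hu/hu, with 1 hu/hu library inside the wt/wt range, and a log2 difference of -0.097 (95% CI -0.20 to 0.0035, adjusted p = 1). With the replicate block it was -0.098, and its interval then left out 0 (95% CI -0.16 to -0.034, adjusted p = 0.777). The other 9 had cortex estimates between -0.057 and 0.031.

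Whether the genotype difference changed with age or region was tested as an interaction. None of the 10 members was called, and neither was any other gene (0% of 16330 genes for age and 0% of 16345 for region, with 125 higher and 178 lower, and 173 higher and 200 lower, at an unadjusted p under 0.05 by edgeR). DESeq2 called 0 genes in either, with 144 higher and 189 lower for age and 170 higher and 184 lower for region at an unadjusted p under 0.05. The members' interaction estimates, as the genotype difference at P21 minus that at E18.5, ranged from -0.11 for Nefh to 0.092 for Map2, and as midbrain minus cortex from -0.078 for Tubb2b to 0.074 for Ina. No genotype difference in the shares within the families passed the test either, and that test did not use the replicate pairs. Over 21 exact permutation tests the smallest p was 0.0857, for Tubb2b in cortex (6.01% ± 0.290 in hu/hu and 5.65% ± 0.171 in wt/wt, n = 4 each, adjusted p = 0.184), where 0.0286 is the smallest p that 4 against 4 allow.

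**Figure D5:**
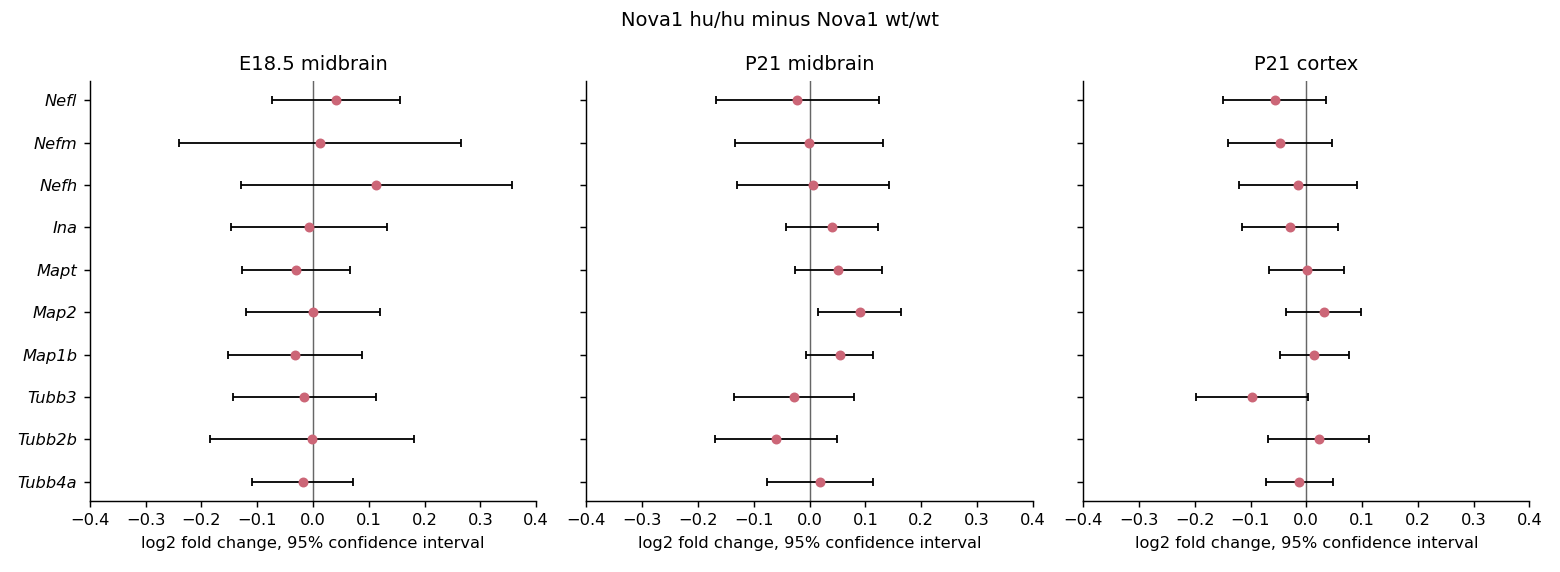
Log2 fold change, Nova1 hu/hu minus Nova1 wt/wt, with its 95% confidence interval for each of the 10 genes in the 3 tissues. The estimates lie close to 0 and no gene was called, Map2 in P21 midbrain being the only one with an interval that leaves out 0 in this fit, which has no replicate block.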

How the data were processed

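RNA was extracted with TRIzol and RNeasy, polyA-selected TruSeq libraries were sequenced in paired ends, and the authors used OLego to align reads to mm10 and Quantas to count them. The annotation version and the use of strand are not given in the sources used here. The deposited expected counts per gene are estimates that were not whole for 751 to 2715 genes per library, and they were rounded before testing. The RPKM values deposited by the authors divide those counts by exon length and the summed counts, and recomputing them gave a largest relative difference of 2.27e-13. TPM here rests on the counts before rounding, divided by exon length. Total counts per library set the precision, and confidence intervals cover the spread between libraries only.

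Differences were tested with edgeR 4.0.16 in R 4.3.3 (quasi-likelihood, TMM factors, filterByExpr, two-sided), called at p under 0.05 and adjusted p under 0.1, the thresholds of the study, which names edgeR but no test. Genotype was tested within tissue, and age and region with genotype as a covariate. Shares were compared by exact permutation and covariation by permutation in Python 3.11.15 with scipy 1.17.1. The edgeR fits were run on simulated counts of independent libraries, which did not carry the replicate pairs. Alternatives used DESeq2 1.42.0, other scaling, filters, thresholds and samples. The members and all lists were chosen with earlier results of these data known. All members are named, with up to 2 related genes called in each direction per list for age and region, and the 3 genes most like each member, except 2 genes that are not reported here.

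Groups and replicate numbers follow the labels, which name no batch or date. The labels do not say that libraries are separate animals, so p-values measure the spread between libraries. The study describes biological replicates and, for its RNA sequencing, male and female pairs in equal number. Sex was not used in any test here. Same-numbered libraries of the 2 genotypes were taken as pairs in the fits with the replicate block, and not in the other tests. The reason is that deviations from group means, over all genes, correlated by 0.171 to 0.391 at E18.5 (6 of 6 pairs over 0.1), 0.201 to 0.235 in P21 midbrain (4 of 4) and 0.170 to 0.246 in cortex (4 of 4). Mapt, Map2, Ina, Nefl and Nefm overlap other genes on the opposite strand in GENCODE.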

Additional observations from a re-analysis of the deposited data

Results flagged for a closer look

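Within the groups of 4 or 6 libraries, 3 of 60 member and group combinations had a library whose gap to its nearest neighbour exceeded Dixon's 95% critical value, and chance alone flags about 1 in 20. Nefh stood at 208.626 TPM in P21 midbrain wt/wt replicate 3, below the 249.988 to 258.308 TPM of the other 3 libraries. Nefm stood at 151.393 TPM in P21 cortex wt/wt replicate 1, above the 143.189 to 144.145 TPM of the others. Map1b stood at 306.273 TPM in P21 midbrain hu/hu replicate 2, below the 320.517 to 323.131 TPM of the others.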

How the results depend on the processing

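All 10 members kept their direction for age and region under every alternative that was run, and the call of Mapt between regions, with library totals, with library totals without Rn45s and in hu/hu alone, was the only one of theirs that was lost. Scaling to library totals shifted the median age change of all genes by -0.155 (log2), or by -0.197 with the ribosomal precursor Rn45s left out, a setting chosen after seeing the data. Stmn3 changed sign with age there, to -0.036 and -0.079. The share of Nefl with age went to -0.425 percentage points with counts not divided by exon length and to -17.0 without Ina, and that of Nefm between regions to 0.607 and 0.219 points. With deviations from genotype means, r passed the adjusted threshold for Nefl with Nefm at E18.5 (0.674) and for Ina with Nefl (0.840) and Nefm (0.838) in P21 midbrain. The causes were not tested. Leaving out each library in turn gave r of 0.576 to 0.791 for Nefl with Nefm and 0.687 to 0.816 for Nefm with Nefh at E18.5, 0.725 to 0.947 for Nefl with Nefh in P21 midbrain and 0.770 to 0.888 for Nefm with Nefh in cortex, with fewer libraries in each test.

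The genotype count in P21 midbrain went from 0 to 1 with DESeq2, 1 with edgeR's exact test and 4 with the replicate block, and the block changed no call of a member. For region, same-numbered libraries of a genotype had correlations of -0.201 to -0.102, and for age -0.145 to 0.147, so the numbers were not read as pairs there.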
